A study of Mus musculus with 33 samples.

Results

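The immunity-related GTPases (IRG proteins) are a family of interferon-inducible GTPases, and 7 of their genes were followed here, by name, through all 9 tables of a mouse pancreatic tumour study. The members were Iigp1, Tgtp1, Tgtp2, Ifi47, Igtp, Irgm1 and Irgm2. All 7 were found among the 53735 genes of each table, and all 7 passed the authors' filter on low levels in every table. RNA had been sequenced from 3 immune populations sorted out of tumours grown from KCKO cells, a pancreatic ductal adenocarcinoma line, in the pancreatic tail of C57BL/6 mice. The question put by the design is how stereotactic body radiotherapy (SBRT), interleukin 12 (IL-12) delivered into the tumour, or both together change each population.

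The populations were inflammatory monocytes (IM), sorted by the phenotype CD45+CD11b+Ly6C+Ly6G-, then macrophages of the tumour (TAM, tumour-associated macrophages), sorted as CD45+CD11b+Ly6G-F480+ cells of moderate Ly6C, and CD8 T cells, gated by CD45 and CD8. The SBRT groups received 4 fractions of 6 Gy on days 6 to 9 after implantation. The IL-12 groups were not irradiated and received microspheres holding 0.5 µg of IL-12 in the tumour on day 10, and the combination groups received both. The unirradiated groups had neither. All mice carried the tumour and titanium markers placed beside it to aim the radiation. The labels mention empty microspheres without saying which groups received them, and give neither the age of the mice nor the day of harvest. There were 3 libraries for every IM and CD8 T cell group, 3 for TAM given IL-12 and 2 for the remaining TAM groups, 33 in all. Whether each library is a different mouse is not stated, so the p-values speak only for spread among libraries, which may be technical.

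By GENCODE annotation of build GRCm38, which is the build named in the submitters' processing notes, all 7 are protein-coding genes in 3 places. Iigp1 lies on chromosome 18, on the plus strand at chr18:60376027-60392634. On chromosome 11, Irgm1 (chr11:48861968-48871683), Tgtp1 (chr11:48985327-48994172) and Tgtp2 (chr11:49057194-49064206), all on the minus strand, lie beside Ifi47 (chr11:49076587-49096974, plus strand). Further along that chromosome, Igtp (chr11:58199556-58207591) and Irgm2 (chr11:58199618-58222782) lie on the plus strand, and their annotated gene bodies overlap. The authors' counts for these genes are not equally separable. Of the 50-base words in the annotated transcripts of Tgtp1, 79.4% also occur in Tgtp2, and 85.8% of those of Tgtp2 occur in Tgtp1, so the authors' counting could move reads between the pair and their values are uncertain as separate genes. Igtp shared 11.8% of its words with Irgm2, and Irgm2 shared 6.79% of its words with Igtp, while Iigp1 and Irgm1 shared 1.69% and 0.379% of theirs with any other gene. Ifi47 and both Tgtp genes also overlap Olfr56, whose level was 288 in IM, and the library kit does not mark strand.

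In mice, IRG proteins are made in response to interferons, chiefly interferon gamma, and defend cells against parasites and bacteria that live in vacuoles. The GKS group, named for a motif in its nucleotide-binding site, holds the effectors that load onto a pathogen's vacuole and help to break it: Iigp1, Tgtp1 and Tgtp2, and Ifi47. The GMS group, in which that motif differs, sits on the cell's own membranes and keeps the effectors inactive there: Igtp, Irgm1 and Irgm2. Interferon gamma acts mainly on genes that carry GAS elements, and type I interferons mainly on genes that carry ISRE elements. IL-12 is known for driving T cells and natural killer cells to secrete interferon gamma.

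The stretch upstream of the start in RefSeq is shown for the 5 members whose searched window holds letters of an interferon element. All 7 members were called higher in IM after IL-12 and after the combination. These calls therefore do not set the 5 apart from Ifi47 or Iigp1. RefSeq promoter windows of build GRCm38.p6, each of 300 bases around the start, were searched for 6 members. Each stretch of 70 bases begins 45 bases before its first match to the ISRE letters. Capitals mark matches to GAAA, any 2 bases, GAAA (ISRE letters, searched on both strands) and to TTCNNNGAA (GAS letters, the same on both strands). The stretches are Tgtp1 (chr11:48992299-48992368, minus strand), Tgtp2 (chr11:49064258-49064327, minus strand), Igtp (chr11:58199477-58199546, plus strand), Irgm2 (chr11:58214868-58214937, plus strand) and Irgm1 (chr11:48871426-48871495, minus strand), each written 5′ to 3′ on the gene's strand.
Tgtp1: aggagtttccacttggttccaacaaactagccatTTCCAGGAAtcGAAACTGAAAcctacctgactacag
Tgtp2: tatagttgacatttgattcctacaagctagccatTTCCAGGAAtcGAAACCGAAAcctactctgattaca
Igtp: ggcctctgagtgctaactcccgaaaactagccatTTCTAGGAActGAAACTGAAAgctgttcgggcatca
Irgm2: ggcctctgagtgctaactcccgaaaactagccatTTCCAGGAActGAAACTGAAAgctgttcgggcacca
Irgm1: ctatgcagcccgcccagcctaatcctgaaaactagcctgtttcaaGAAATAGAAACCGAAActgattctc

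Tgtp1, Tgtp2, Igtp and Irgm2 each hold 1 match to the GAS letters followed, after 2 bases, by 1 match to the ISRE letters. Irgm1 holds 2 overlapping ISRE matches and no GAS match, and the window of Ifi47 holds neither set of letters. Iigp1 was left out of this search, so whether it carries either set of letters was not tested. Over all 32851 windows of the same length in the RefSeq table, 3.44% hold the ISRE letters, 8.3% the GAS letters and 0.454% both. The stretches of Igtp and Irgm2 have the same base at 68 of 70 positions, those of Tgtp1 and Tgtp2 at 51 of 70. The RefSeq starts of Tgtp1, Irgm1 and Irgm2 lie inside the GENCODE gene bodies given here, downstream of the GENCODE starts, so these stretches are upstream of the RefSeq start only. The matches are letters in a window and not measured binding.

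**Figure D1:**
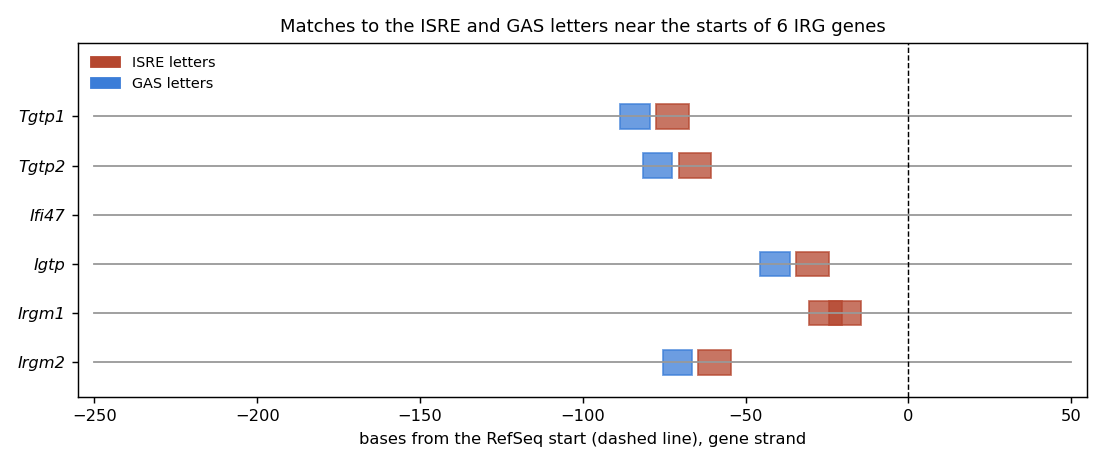
Positions of the ISRE and GAS letters in the RefSeq windows of 6 IRG genes, in bases from the RefSeq start on the gene's strand. Tgtp1, Tgtp2, Igtp and Irgm2 carry the pair within 100 bases upstream, Irgm1 carries 2 overlapping ISRE matches, and Ifi47 carries none.

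For each gene the authors' deposited tables hold the mean level over the libraries of a population (counts divided by size factors) and the DESeq2 comparison of a treatment with the unirradiated group: a log2 fold change, a Wald statistic and p-values. No single library has a value of its own, so depth is unknown and only groups can be compared. The sorted cells held RNA of markers for their labels. Ly6c2 had a level of 49540 in IM, C1qa one of 113936 in TAM and Cd8a one of 44253 in CD8 T cells. These single genes do not show that IM were free of macrophage RNA. In IM the 6 monocyte markers summed to 217792 and the 8 macrophage markers to 309317. In TAM the same lists summed to 30126 and 1294873. The 8 T cell markers summed to 1576 in IM and 1613 in TAM, against 226501 in CD8 T cells, with no marker at 0, and the populations were normalised separately. None of 10 mitochondrially encoded genes passed the test in any table, where 0.471% to 7.47% of the genes tested were called in either direction. Of these 10, 0 to 3 had an unadjusted DESeq2 p below 0.05, and all 10 had a negative statistic in every IM and TAM comparison. Their summed level in IM was 428323 after SBRT, 441127 after IL-12 and 432354 after the combination, against 521881 in the unirradiated group. In TAM it was 576448, 558324 and 646546, against 694449 in the unirradiated group, and the part of these differences in the results was not tested. In bulk RNA from sorted cells, a change in the share of a cell subtype and a change in RNA per cell cannot be told apart.

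All 7 genes were strongly expressed in both myeloid populations. Ranked among the 32882 genes with a level above 0 in IM, Iigp1 stood at percentile 99.4, Tgtp2 at percentile 99.5 and Irgm2, the lowest member, at percentile 96.1. In TAM the members ran from percentile 96.5 (Irgm2) to 99.5 (Tgtp2). CD8 T cells differed in the place of Iigp1, whose level of 1038 put it at percentile 78.4, while Tgtp2 stood at percentile 97.5. Per kilobase of the longest coding transcript, Tgtp2 was first in IM (12645) and in TAM (13231) and Irgm2 last (1830 and 1877). In CD8 T cells Ifi47 was first (4700 per kilobase), followed by Igtp (4430 per kilobase) and Tgtp2 (3366 per kilobase), and Iigp1 was last (333 per kilobase). Counted per kilobase of all annotated exons instead, Igtp was first in CD8 T cells (4430) ahead of Ifi47 (3370), and Iigp1 stood in place 5 in IM, against place 2 by coding transcript. The tables give no spread for a level, so neighbours in these orders cannot be separated.

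**Figure D2:**
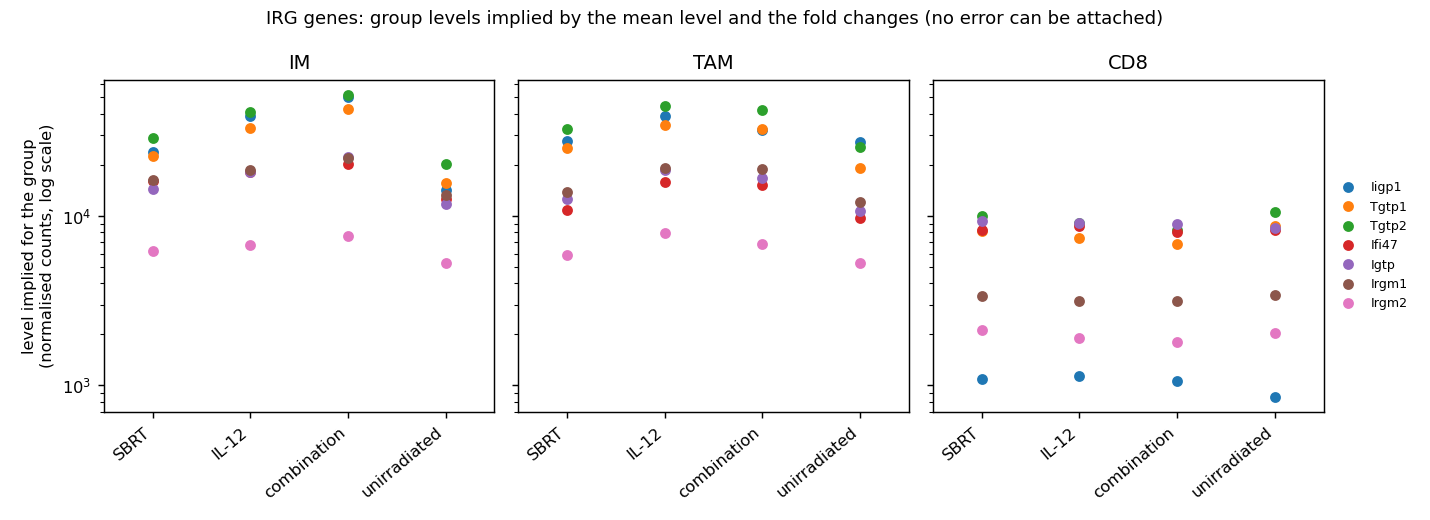
Level of each IRG gene in the SBRT, IL-12, combination and unirradiated groups of IM, TAM and CD8 T cells (log axis, normalised counts), computed from the deposited mean level and fold changes; no error can be attached. The points climb over the treatments in IM, sit highest after IL-12 in TAM and lie nearly level in CD8 T cells, where Iigp1 is lowest.

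In inflammatory monocytes 3, 7 and 7 of the 7 members rose after SBRT, IL-12 and the combination, where 0.379%, 1.91% and 3.69% of the genes tested were called higher. The implied levels stood in the order SBRT, IL-12, combination for every member, all above the unirradiated group, and Iigp1 and the Tgtp genes had the largest folds. The level of Iigp1 implied by the deposited mean and fold changes was 23972 after SBRT, 38994 after IL-12 and 50377 after the combination, against 14199 in the unirradiated group. For Tgtp2 it was 28886, 41050 and 51813 after the same treatments, against 20376 in the unirradiated group. Irgm2, the GMS gene with the smallest change, was at 6223, 6750 and 7609, against 5250 in the unirradiated group.

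The 3 members that rose in IM after SBRT alone were all effectors, though Tgtp1 and Tgtp2 among them are not separate measurements. In the authors' deposited table Iigp1 rose 1.69-fold (log2 fold change 0.76 ± 0.12 SE, DESeq2 adjusted p = 6.7e-07). Tgtp1 (0.53 ± 0.11) and Tgtp2 (0.50 ± 0.11) rose with an adjusted p of 0.0019 each in that deposited table. The other effector, Ifi47, had 0.35 ± 0.12 (adjusted p = 0.21) in the authors' deposited table. The regulators ran from 0.25 (Irgm2) to 0.30 (Irgm1) in the deposited table, with adjusted p from 0.39 to 0.56. All 7 had an unadjusted p below 0.05, and the median of the members was 0.35, against -0.02 over the 19273 genes tested.

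After IL-12 alone all 7 members rose in IM, effectors and regulators alike. Iigp1 rose 2.75-fold in the authors' deposited table (1.46 ± 0.12, adjusted p = 5.3e-32). Tgtp1 rose by a log2 fold change of 1.07 ± 0.11 and Tgtp2 by 1.01 ± 0.11 in the authors' deposited table. Ifi47, the effector whose window held neither element, rose by 0.53 ± 0.12 (adjusted p = 0.00049) in that deposited table. Among the regulators, Igtp rose by 0.62 ± 0.11 and Irgm1 by 0.50 ± 0.13 in the authors' deposited table. Irgm2 passed narrowly there (0.36 ± 0.11, deposited adjusted p = 0.035), and its adjusted p was 0.067 when all genes with a p were counted.

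After the combination all 7 again rose in IM. In the authors' deposited table Iigp1 rose 3.55-fold (1.83 ± 0.12, adjusted p = 1.4e-51), the largest change among the 7 members in any population. Tgtp1 rose 2.72-fold and Tgtp2 2.54-fold in the deposited table. The next was a regulator, Igtp, at 0.92 ± 0.11, followed by Irgm1 at 0.73 ± 0.13, Ifi47 at 0.68 ± 0.12 and Irgm2 at 0.54 ± 0.11 in the authors' deposited table. The median over the 4 GKS members was 1.40 and over the 3 GMS members 0.73, against -0.02 over all 18660 genes tested. The GKS median is set by Tgtp1 and Tgtp2, which share most of their sequence and are not separate measurements. Sort and subtype markers changed in the same libraries. Over all genes tested in IM, 1.91% were called higher and 1.33% lower after IL-12, and 3.69% and 3.03% after the combination. Of 6 monocyte markers, 2 rose and 3 fell after IL-12 and after the combination, with Ly6c2 at 1.10 and Vcan at -1.23 after the combination in the authors' deposited table. Their summed level was 221393 after SBRT, 227032 after IL-12 and 214429 after the combination, against 208314 in the unirradiated group. Of 8 macrophage markers in IM, 1 rose and 1 fell after IL-12, and 3 rose (C1qa, C1qb and C1qc) and 1 fell (Mrc1) after the combination. Their summed level was 318160 after SBRT, 311062 after IL-12 and 306810 after the combination, against 301237 in the unirradiated group. Of 6 dendritic cell markers, 1 fell after IL-12, and 2 rose and 1 fell after the combination, at summed levels of 2181 after SBRT, 2056 after IL-12 and 2363 after the combination, against 1813 in the unirradiated group. None of these 3 lists gave a call in IM after SBRT, where 0.519% of the genes tested were called in either direction. There 1, 3 and 3 of the monocyte, macrophage and dendritic cell markers had an unadjusted DESeq2 p below 0.05, and no listed marker was at 0. The part of these changes in the IRG results was not tested.

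**Figure D3:**
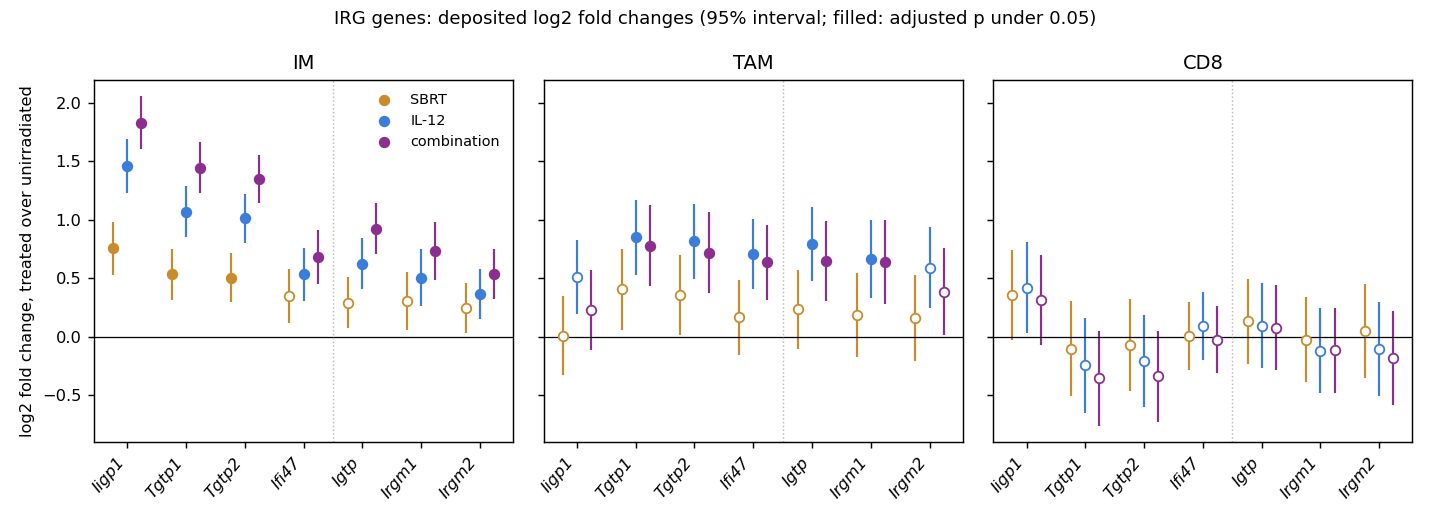
Deposited log2 fold changes over the unirradiated group with 95% intervals for the 4 GKS genes (left of the dotted line) and 3 GMS genes, by population and treatment; filled points had a DESeq2 adjusted p below 0.05. IM shows 3, 7 and 7 filled points after SBRT, IL-12 and the combination, TAM 0, 5 and 5, and CD8 T cells none.

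Tumour-associated macrophages showed a narrower band of changes, and Iigp1, first in IM, did not pass the deposited test after any treatment. After SBRT none of the 7 passed DESeq2 in TAM, where 0.933% of the genes tested were called higher, and 2 had an unadjusted p below 0.05. These were Tgtp1 (0.40 ± 0.18) and Tgtp2 (0.36 ± 0.17) in the authors' deposited table, while Iigp1 had 0.01 ± 0.17. With 2 libraries in each group the interval for Iigp1 ran from -0.33 to 0.35.

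After IL-12 alone 5 of 7 rose in TAM, where 0.651% of the genes tested were called higher. In the authors' deposited table the members of the 2 groups lay close together, with Tgtp1 at 0.85 ± 0.16, Tgtp2 at 0.81 ± 0.16, Igtp at 0.79 ± 0.16, Ifi47 at 0.70 ± 0.15 and Irgm1 at 0.66 ± 0.17. Irgm2 (0.59 ± 0.18, adjusted p = 0.078) and Iigp1 (0.51 ± 0.16, adjusted p = 0.13) did not pass in the deposited table, though both had an unadjusted p below 0.05. With statistics scaled by the robust spread over genes, both passed when all genes set that spread, and only Irgm2 passed when genes with a level of at least 50 did. These 2 settings called 820 and 209 genes in all, against 178 in the deposited table. The implied levels of Iigp1 were 27602 after SBRT, 39031 after IL-12 and 32146 after the combination, against 27444 in the unirradiated group.

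The combination raised the same 5 members in TAM, where 2.24% of the genes tested were called higher. The 5 ran from 0.64 (Ifi47 and Irgm1) to 0.78 (Tgtp1) in the authors' deposited table. Iigp1 had 0.23 ± 0.17 (adjusted p = 0.65) and Irgm2 0.38 ± 0.19 (adjusted p = 0.32) in the deposited table. The median of the members was 0.64, against 0.0008 over all 17224 genes tested. When the statistics were scaled to their spread over genes with a level of at least 50, only Tgtp1 and Tgtp2 among the members passed. That scaling called 255 genes in all, against 725 in the deposited table. Of 6 monocyte markers, 2 were higher in TAM after each treatment, where 0.933%, 0.651% and 2.24% of the genes tested were called higher. That list summed to 28117 after SBRT, 35203 after IL-12 and 32380 after the combination, against 22268 in the unirradiated group. Of 8 macrophage markers, 1 had a positive statistic after each treatment. Called lower were 0, 0 and 1, where 1.15%, 0.284% and 1.97% of the genes tested were. They summed to 1248335, 1294742 and 1237839, against 1398643 in the unirradiated group. The part of either list was not tested.

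In CD8 T cells none of the 7 passed DESeq2 after SBRT, IL-12 or the combination, where 0.306%, 1.48% and 4.51% of the genes tested were called higher. At an unadjusted p below 0.05 there were 0, 1 and 0 members. That 1 was Iigp1 after IL-12 (0.42 ± 0.20, adjusted p = 0.28) in the authors' deposited table. Its implied levels were 1092 after SBRT, 1144 after IL-12 and 1060 after the combination, against 855 in the unirradiated group. The Tgtp genes had negative values after each treatment, and after the combination Tgtp1 had -0.36 ± 0.21 and Tgtp2 -0.34 ± 0.20 in the authors' deposited table. The upper ends of their 95% intervals, 0.05 for both, lay under the lower ends in IM, 1.23 for Tgtp1 and 1.14 for Tgtp2. Ifi47, Igtp, Irgm1 and Irgm2 lay between -0.18 and 0.13 in the 3 deposited tables. The CD8 T cell libraries also held macrophage RNA. The 8 macrophage markers summed to 12323 after SBRT, 9226 after IL-12 and 7150 after the combination, against 10513 in the unirradiated group. None was called. After SBRT, IL-12 and the combination 8, 1 and 0 had a positive statistic, and 0, 0 and 6 an unadjusted DESeq2 p below 0.05. The part of this RNA in the IRG values was not tested.

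The treatments were then set against each other within a population. Each difference was taken from the deposited statistics, tested with a normal test and adjusted over all genes by Benjamini-Hochberg. In IM the combination exceeded SBRT alone for 4 of 7 members, where 0.204% of all genes were called. The difference was 1.07 ± 0.16 (SE) for Iigp1 (adjusted p = 1.1e-06), 0.91 ± 0.16 for Tgtp1, 0.84 ± 0.15 for Tgtp2 and 0.63 ± 0.16 for Igtp (adjusted p = 0.036). The other 3 were also positive, from 0.29 to 0.43.

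The combination did not pass against IL-12 alone in IM for any member, nor for any other gene (0.0% called). The differences were all positive, from 0.15 for Ifi47 to 0.38 for Tgtp1, and 3 effectors had an unadjusted p below 0.05. The 95% interval for Iigp1, 0.05 to 0.69, leaves a range of sizes possible. IL-12 minus SBRT was positive for all 7, and none passed, where 0.0244% of genes were called and 4 members had an unadjusted p below 0.05. Iigp1 was nearest at 0.70 ± 0.16 (adjusted p = 0.063). This test adds the variance of the shared unirradiated libraries to both sides and is conservative. With their variance removed, Iigp1, Tgtp1 and Tgtp2 passed with adjusted p of 4.9e-06, 0.0014 and 0.0014, where 0.317% of genes were called.

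Whether the combination departed from the sum of both single effects was asked through the interaction on the log2 scale. In IM no member passed, at an adjusted or unadjusted p, where 0.00305% of genes did. The value for Iigp1 was -0.39 (95% interval -0.78 to 0.01) and that for Igtp 0.01 (-0.37 to 0.39). This test too adds the variance of the shared unirradiated libraries to every effect. It is therefore conservative and its intervals are too wide, so the upper end for Iigp1 does not settle the sign. For Igtp departures of either sign remain within the interval. In TAM all 7 interaction values were negative, from -0.54 for Tgtp1 to -0.26 for Irgm1. None passed, at an adjusted or unadjusted p, where 0.0124% of genes did. With the shared control variance removed, no member passed at an adjusted p in IM or TAM, where 0.0122% and 0.034% of genes were called. Unadjusted p-values were counted only with that variance left in.

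In TAM none of the treatment differences passed. The combination minus SBRT (0.00309% of genes called) was positive for all 7, with a median of 0.37 and 1 unadjusted p below 0.05. The combination minus IL-12 (0.0741% called) was negative for all 7, with a median of -0.16 and no unadjusted p below 0.05. IL-12 minus SBRT (0.0896% called) had a median of 0.52 and 6 unadjusted p below 0.05. With the shared control variance removed (0.541% called), Ifi47 at 0.59 and Igtp at 0.62 passed this last difference, with adjusted p of 0.033 and 0.038. In CD8 T cells no member passed, even at an unadjusted p below 0.05, for the combination minus SBRT, the combination minus IL-12, IL-12 minus SBRT or the interaction, where 0.0755%, 0.00302%, 0.0211% and 0.00302% of genes were called. Among the treatment differences the intervals of Tgtp1 were widest, such as -0.83 to 0.32 for the combination minus SBRT.

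Between the monocytes and the macrophages, Iigp1 was the only member to pass the main test of a difference in response. After the combination its log2 fold change was 1.60 ± 0.21 (SE) larger in IM than in TAM (normal test with Benjamini-Hochberg adjustment, adjusted p = 1.4e-10). No other member passed IM minus TAM, where 0.924% of genes were called. Tgtp1 came next at 0.67 ± 0.21 (adjusted p = 0.10) and Tgtp2 at 0.63 ± 0.20 (adjusted p = 0.13). The others lay between 0.04 (Ifi47) and 0.27 (Igtp). All 7 differences were positive after the combination, and 3 had an unadjusted p below 0.05. In simulated data this test recovered 0.5% of differences of 0.5, so a missed threshold does not show an equal response. After IL-12 alone Iigp1 was again the member that passed, with a difference of 0.92 ± 0.21 (adjusted p = 0.025; 0.0598% of genes called). The 3 regulators and Ifi47 had differences from -0.27 to -0.20 after IL-12. After SBRT the difference for Iigp1 was 0.75 ± 0.21 and did not pass (adjusted p = 0.098; 0.263% of genes called), and no other member had an unadjusted p below 0.05. The implied level of Iigp1 in the unirradiated groups was 14199 in IM and 27444 in TAM. These populations were normalised separately, and no test was made of these levels.

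Against CD8 T cells the monocytes differed in 6 of 7 members after the combination, where 1.89% of genes were called. The differences were 1.80 for Tgtp1, 1.69 for Tgtp2, 1.52 for Iigp1, 0.85 for Igtp and Irgm1 and 0.70 for Ifi47. Irgm2 had 0.72 ± 0.23 (adjusted p = 0.082). After IL-12 alone 3 passed (0.466% of genes called), namely Tgtp1 at 1.31, Tgtp2 at 1.22 and Iigp1 at 1.04, and after SBRT none did (0.02% called), with 2 unadjusted p below 0.05. With statistics scaled to their spread over genes with a level of at least 50, the count after the combination was 3, the same 3 genes as after IL-12.

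TAM minus CD8 T cells passed for Tgtp1 and Tgtp2 alone, at 1.13 ± 0.27 and 1.06 ± 0.27 after the combination (2.42% of genes called). After IL-12 the values were 1.16 ± 0.27 and 1.08 ± 0.27 (0.195% called). In the scaled test described for IM, neither gene passed after the combination (adjusted p of 0.090 and 0.13), and after IL-12 Tgtp1 passed (adjusted p = 0.038) and Tgtp2 did not (adjusted p = 0.052). Irgm1 (0.75 ± 0.26, adjusted p = 0.11) and Ifi47 (0.66 ± 0.22, adjusted p = 0.087) missed the threshold after the combination. Iigp1 did not pass between these populations, at -0.08 (95% interval -0.60 to 0.43) after the combination and 0.12 (-0.39 to 0.64) after IL-12. After SBRT no member passed (0.647% of genes called), and none had an unadjusted p below 0.05.

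**Figure D4:**
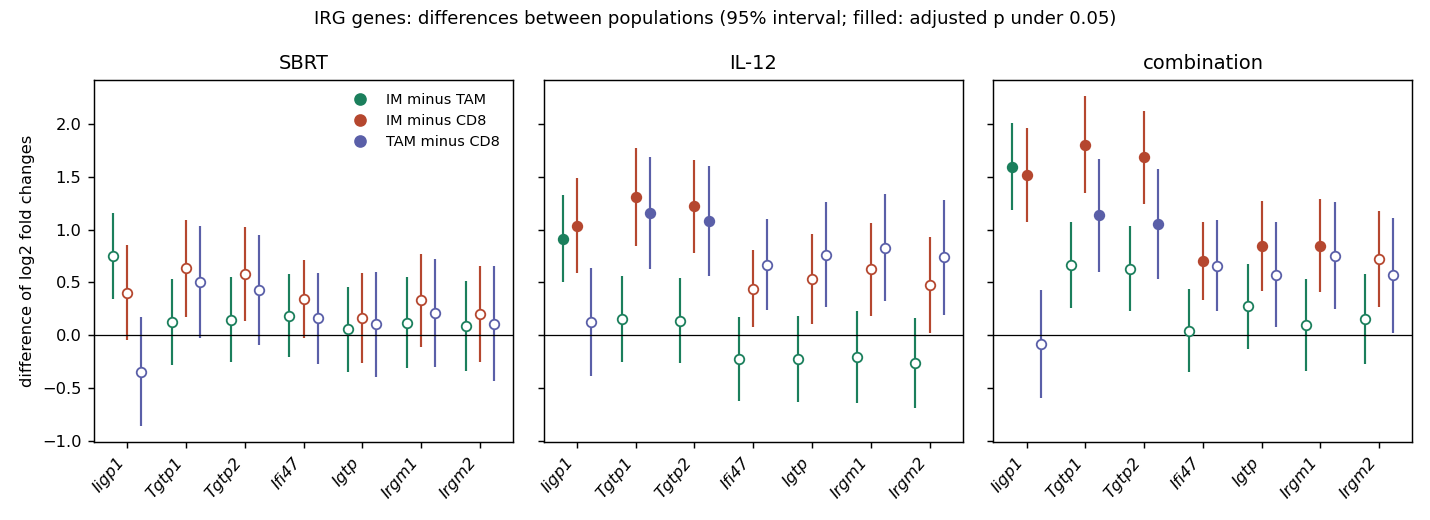
Differences between populations in the log2 fold changes of the IRG genes, with 95% intervals, after SBRT, IL-12 and the combination; filled points had an adjusted p below 0.05. Iigp1 stands at 0.92 after IL-12 and 1.60 after the combination for IM minus TAM, and at -0.08 after the combination for TAM minus CD8.

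The guanylate-binding proteins (GBPs), larger interferon-inducible GTPases that act beside IRG proteins at pathogen vacuoles, were higher in the same libraries. Of 11 Gbp genes, 4, 10 and 11 rose in IM after SBRT, IL-12 and the combination, with medians of 0.53, 1.06 and 1.45 in the authors' deposited tables. Over all genes tested in IM, 0.379%, 1.91% and 3.69% were called higher, and the median was -0.02 after each treatment. In TAM 2, 9 and 10 rose, with medians of 0.53, 0.77 and 0.80, where 0.933%, 0.651% and 2.24% of the genes tested were called higher. In CD8 T cells 2, 1 and 1 rose, where the shares were 0.306%, 1.48% and 4.51%. By adjusted p, Gbp8 (1.46 ± 0.14), Gbp4 (1.49 ± 0.15) and Gbp11 (1.58 ± 0.17) came first in IM after the combination in the authors' deposited table, while Gbp2b had the largest log2 fold change there (1.87 ± 0.22). The gene that missed the threshold in IM after IL-12 was Gbp9 (0.26 ± 0.12, adjusted p = 0.27), and in TAM after the combination it was Gbp3 (0.56 ± 0.19, adjusted p = 0.062), in those deposited tables. In CD8 T cells Gbp3 rose after all 3 treatments, by 0.47 ± 0.12, 0.48 ± 0.12 and 0.75 ± 0.12 in the authors' deposited tables.

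Among 6 further IRG-like genes in the tables, 1, 2 and 3 rose in IM after SBRT, IL-12 and the combination, and 1 after each treatment in TAM. Of all genes tested, 0.379%, 1.91% and 3.69% were called higher in IM, and 0.933%, 0.651% and 2.24% in TAM. In CD8 T cells 4, 3 and 4 of the 6 had a DESeq2 adjusted p, and none of these rose, with 1, 0 and 0 at an unadjusted p below 0.05. There the shares called higher were 0.306%, 1.48% and 4.51%. F830016B08Rik had no adjusted p in CD8 T cells after IL-12 (0.53 ± 0.22, unadjusted DESeq2 p = 0.017) in the authors' deposited table. F830016B08Rik, which neighbours Iigp1, rose in IM by 2.14 ± 0.17 after the combination in the authors' deposited table (Iigp1 had 1.83 ± 0.12). In TAM F830016B08Rik rose after the combination (0.72 ± 0.19, adjusted p = 0.0057) and after SBRT (0.77 ± 0.19, adjusted p = 0.0046) in the authors' deposited tables. Gm4841, also beside Iigp1, rose in IM by 1.94 ± 0.21 after the combination in the deposited table. Within 200 kb of Iigp1, 3 of 6 tested neighbours rose in IM after the combination, where 3.69% of the genes tested were called higher. F830016B08Rik and Gm4841 are among these neighbours, so they are counted here and among the IRG-like genes. Near Igtp and Irgm2 none of 7 rose there, and near the other chromosome 11 members 3 of 8 did. The last were Psme2b (0.58 ± 0.10), Olfr56 (0.67 ± 0.19) and 9930111J21Rik1 (0.37 ± 0.12) in the authors' deposited table. Of these, 9930111J21Rik1 is also one of the IRG-like genes counted above. Olfr56 overlaps 3 of the members, so its reads and theirs may not be separable.

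Of 11 genes that transmit the interferon gamma signal, 1, 2 and 3 rose in IM after SBRT, IL-12 and the combination, and 1, 2 and 3 in TAM. The shares of all genes tested that were called higher were 0.379%, 1.91% and 3.69% in IM, and 0.933%, 0.651% and 2.24% in TAM. Socs1, a feedback inhibitor of the pathway, rose in IM by 1.10 ± 0.15 after the combination in the authors' deposited table. Ifngr1, a subunit of the interferon gamma receptor, fell in IM after IL-12 (-0.69 ± 0.13) and after the combination (-0.71 ± 0.13) in the authors' deposited table, where 1.33% and 3.03% of the genes tested were called lower. Ifng, the cytokine gene, rose in CD8 T cells after the combination (0.80 ± 0.21, adjusted p = 0.0038) in the authors' deposited table, where its level was 10716. After IL-12 it had 0.64 ± 0.21 (adjusted p = 0.060) in the deposited table, a value chosen after it was seen. In TAM Ifng rose after the combination by 1.22 ± 0.30 at a level of 135 in the authors' deposited table. The TAM libraries also held T cell RNA. Their 8 T cell markers summed to 1384 after SBRT, 1369 after IL-12 and 1912 after the combination, against 1909 in the unirradiated group. Which cells held this Ifng RNA was not tested. Ifngr2, the other receptor subunit, fell in CD8 T cells after IL-12 (-0.81 ± 0.25) and the combination (-1.18 ± 0.24) in the deposited table, where 1.04% and 2.96% of genes were called lower.

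Of 13 genes of type I interferon signalling and its targets, 0, 5 and 7 rose in IM and 3, 5 and 5 in TAM. Among all genes tested, 0.379%, 1.91% and 3.69% were called higher in IM, and 0.933%, 0.651% and 2.24% in TAM. After SBRT in IM, 4 of the 13 had an unadjusted DESeq2 p below 0.05. In CD8 T cells none of the 12 tested rose after any treatment, with 2, 3 and 3 at an unadjusted p below 0.05. There 0.306%, 1.48% and 4.51% of all genes tested were called higher. Mx1, an antiviral GTPase, rose in TAM after SBRT (1.01 ± 0.18) and after the combination (1.24 ± 0.18) in the authors' deposited tables. Autophagy conjugation genes such as Atg5, which in mice are needed to load IRG proteins onto vacuoles, gave no higher call among 11 in any of the 9 tables, with 0 to 4 at an unadjusted DESeq2 p below 0.05. Atg12 fell in CD8 T cells after the combination (-0.51 ± 0.15, adjusted p = 0.013) in the authors' deposited table.

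**Figure D5:**
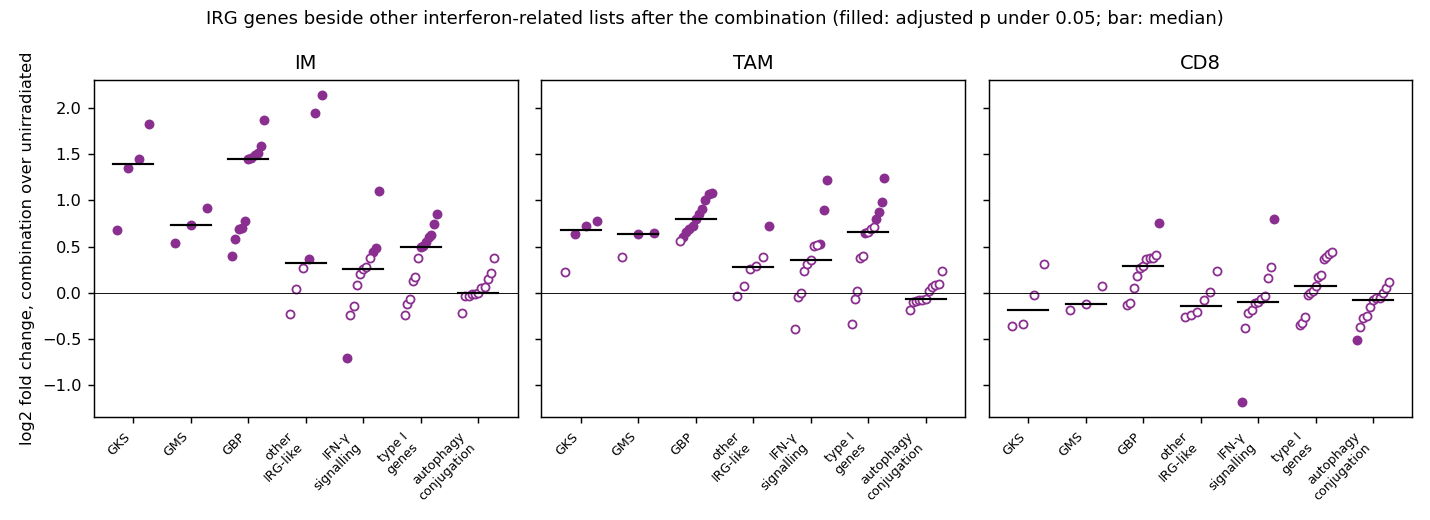
Deposited log2 fold changes after the combination for the 4 GKS and 3 GMS IRG genes, 11 Gbp genes, 6 other IRG-like genes, 11 interferon gamma signalling genes, 13 type I interferon genes and 11 autophagy conjugation genes, by population; filled points had a DESeq2 adjusted p below 0.05 and bars are medians. In IM the GKS median is 1.40 and the Gbp median 1.45, while the autophagy genes lie around 0 in all 3 populations.

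The genes whose 9 log2 fold changes lay closest to the mean profile of the members were sought among 12135 genes with a level of at least 50 in all 3 populations. They were Naaa, Tap2, Cd200r4, Wars and Pfkm, with root-mean-square differences of 0.12, 0.14, 0.15, 0.15 and 0.15 on the log2 scale, where the median gene had 0.60. The mean profile itself ran 0.43, 0.79 and 1.07 in IM, 0.22, 0.70 and 0.58 in TAM and 0.05, -0.01 and -0.09 in CD8 T cells after SBRT, IL-12 and the combination. Tap2, a subunit of the transporter that feeds peptides to MHC class I, had 0.37, 0.59 and 0.82 in IM after the same treatments in the authors' deposited tables. Among the members Igtp lay closest to the mean profile (0.12) and Iigp1 furthest from it (0.44). The comparisons within a population share their unirradiated libraries, so the 9 values are not independent.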

How the data were processed

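RNA was sequenced in 33 libraries of 12 groups. Per the labels' protocols, sorted cells were lysed, RNA was purified and TruSeq V2 libraries were run on a HiSeq instrument. The submitters' processing notes name GRCm38 as build and list STAR 2.6.0c, featureCounts, Subread, Salmon, Trimmomatic 0.36 and FastQC 0.11.8; how these were combined is not given in the sources used here. The authors deposited 9 DESeq2 tables, per the file headers, each with a normalised signal (the mean level), a log2 fold change, a Wald statistic (a score), a p-value and an adjusted p-value. Each population's 3 tables hold the same levels and share their controls. The deposited log2 fold changes were taken to be shrunken, which understates effects, most of all imprecise ones. The standard error was taken as the fold change divided by the statistic. If the statistic came from unshrunken fold changes, this ratio understates the standard error, and the intervals given here are too narrow.

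Members were called at a deposited adjusted p below 0.05. Group levels were solved from the mean level, the fold changes and the library numbers. For differences, each effect was rebuilt as its statistic multiplied by 1 common standard error per gene and population. Variances were added, the 2-sided normal p was adjusted by Benjamini-Hochberg over every gene that had one, and this was computed in Python 3.11.15 with scipy 1.17.1. Tested on simulated data (13484 genes, IM, combination minus SBRT), this recovered 69.5% of differences of 1 on the log2 scale and 3% of differences of 0.5. Each simulation held only genes with a level of at least 50 and changed 200 of them. The real test in IM was adjusted over 32818 genes, so its recovery may be lower than these values. In TAM (13848 genes) the same comparison recovered 46.5% and 0.0%. For an interaction of 1, recovery was 49% in IM and 10% in TAM, and for one of 0.5 it was 2% and 0.0%. For IM minus TAM (13111 genes) it recovered 59% of differences of 1 and 0.5% of differences of 0.5. Depth is unknown, and no interval that needs counts is given. Named genes were all members, up to 3 called genes with the smallest adjusted p from each list, and genes whose missing call is stated. Also named were the neighbours of the chromosome 11 members called in IM after the combination, and the 5 nearest profiles. The members and lists were chosen with earlier results of these data known. Alternatives were another standard error, level and threshold filters, adjustment over all genes, scaled statistics and removed control variance.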

Additional observations from a re-analysis of the deposited data

Results flagged for a closer look

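The effects of the same treatment on an IRG gene differed between populations, by a normal test of the difference adjusted over all genes, in 15 cases, given here as differences of log2 fold changes. Iigp1, an effector GTPase gene, was higher in IM than in TAM after IL-12 by 0.916 and after the combination by 1.60. It was higher in IM than in CD8 T cells by 1.04 after IL-12 and by 1.52 after the combination. Tgtp1 and Tgtp2, which share most of their sequence and count as nearly 1 measurement, were higher in IM than in CD8 T cells after IL-12 by 1.31 and 1.22 and after the combination by 1.80 and 1.69. They were higher in TAM than in CD8 T cells after IL-12 by 1.16 and 1.08 and after the combination by 1.13 and 1.06. After the combination the regulators Igtp and Irgm1 differed between IM and CD8 T cells by 0.846 and 0.848, and the effector Ifi47 by 0.703.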

How the results depend on the processing

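No paired analysis was possible because the tables hold no values of single libraries; for the same reason no replicate was left out and no replicate block was fitted. No direction reversed in any alternative run. Counts of members below are of 7. With every statistic scaled by the robust spread of all genes, which lowers the bar, IM called 6 after SBRT, the combination minus SBRT gave 7 in IM and 3 in TAM, the combination minus IL-12 gave 4 in IM, IL-12 minus SBRT gave 4 in IM and 7 in TAM, the IM interaction gave 1, IM minus TAM gave 1 after SBRT and 3 after the combination, and TAM minus CD8 gave 5 after IL-12. The same scaling over genes with a level of at least 50, an alternative chosen after seeing the data, raised the bar in most comparisons. It gave 2 in TAM after the combination, 3 for IM minus CD8 and 0 for TAM minus CD8 after the combination, and 1 for TAM minus CD8 after IL-12; for IM it gave 1 for the combination minus IL-12 and 3 for IL-12 minus SBRT, and for TAM 2 for IL-12 minus SBRT. Calls over all genes moved as well. Scaled by the spread of all genes, 756 genes were called in IM after SBRT, against 100 in the deposited table. In TAM after the combination, scaling at a level of at least 50 called 255 genes, against 725 in the deposited table. For the differences, calls over all genes under these scalings are not given here. Restricting genes to a level of at least 50 gave 1 for IL-12 minus SBRT in IM. Removing the shared control variance gave 3 in IM and 2 in TAM for IL-12 minus SBRT. Elsewhere the cause was not tested. The other counts stayed within 1.5 times, among them TAM after IL-12, where 7 passed with statistics scaled over all genes (Iigp1 and Irgm2 added) and 6 with those scaled at a level of at least 50 (Irgm2 added). Over all genes these scalings called 820 and 209 in TAM after IL-12, against 178 in the deposited table. At a threshold of 0.01, Irgm2 in IM after IL-12 and Irgm1 in TAM after IL-12 and after the combination no longer passed. Without library values, depth, outlying libraries and the direction in each library could not be examined.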
